A study of Mus musculus with 2 samples.

Results

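The 33 glutamate and GABA receptor genes described here are a fixed list of receptor subunit genes, 22 for glutamate and 11 for GABA. The list was drawn up by receptor class and not by peak counts, though with earlier results of these data known. For each gene the p300 peaks were counted whose midpoint lay inside the gene body or within 250 kb of its transcription start site (TSS), a stretch called its window here. Of the 6629 peaks in the deposited list, 49 distinct peaks lay in these windows, and 25 of them lay inside a receptor gene. All 33 genes were found in the annotation, among 22367 protein-coding genes. Further genes of the same families are not analysed here.

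The peaks come from chromatin immunoprecipitation and sequencing of p300 in neocortex, dissected as dorsal cerebral wall, from E14.5 embryos of Swiss Webster mice, with 1 p300 library and 1 input library and no replicate. The tissue is the wall of the embryonic forebrain that becomes the neocortex, freed of its medial structures and the choroid plexus, and it holds progenitors and newly made neurons together. The embryos carried no mutation or treatment named in the labels, and 0.15 g of dissected tissue was fixed with 1% formaldehyde for 15 minutes. The cell population behind a given peak was not measured. The list gives the position of each peak without a score or a read count, so the depth behind a single peak is unknown and no value could be compared between samples. The peaks have already lost any that touched an exon or lay within 2.5 kb of a TSS, so promoters cannot be judged from them.

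The histone acetyltransferase p300 is brought to active enhancers by transcription factors, and its peaks away from promoters are therefore used as candidate enhancers. Glutamate is the main excitatory transmitter of the cortex and GABA the main inhibitory one. The ionotropic receptors for both are ion channels built from several subunits, each subunit with its own gene, while the metabotropic glutamate receptors and the GABA-B receptor are coupled to G proteins. Many of these genes are used most heavily after neurons have matured and formed synapses, and in the embryonic cortex transmitter receptors are also present on progenitors and migrating neurons. As a check of the tissue, windows drawn the same way held 10 peaks at Neurod2, 7 at Fezf2, 5 at Eomes and 4 at Tbr1, all genes of dorsal cortical cells. Neurod2 and Fezf2 passed the test described further on (adjusted p = 0.000192 and 0.0193, exact binomial test) and Eomes and Tbr1 did not (0.209 and 0.515, the same exact test). The 40 annotation entries for Hox genes, which pattern the hindbrain and trunk, had from 0 to 3 peaks with a median of 1, and 0 of them passed. The Hox genes were not devoid of peaks, since 37 of the 40, which stand in clusters with shared windows, had at least 1. Over all protein-coding genes 48.7% had at least 1 and the median was 0. The Hox windows are therefore no empty contrast, and the check rests on the high counts at Neurod2 and Fezf2. The authors report a single p300 peak in the shorter stretch around Fezf2 that they examined, so the other peaks counted for it lie outside that stretch. Which genes the peaks of these windows act on was not measured.

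The receptor genes as a group held as many p300 peaks as the length of their windows predicts. Their windows, united where they overlapped, covered 19 Mb of assembled sequence and held 49 peaks, where uniform placement of 6629 peaks would give 49.1. The fold was 0.998, with an exact Clopper-Pearson 95% interval of 0.739 to 1.32, which covers counting error only. Inside the gene bodies alone there were 25 peaks against 24.1 expected, a fold of 1.04 (interval 0.672 to 1.53). The nearness of these counts to their expectation was not carried by the gene with the most peaks for its length, since without Grik3, a choice made after the values were seen, the fold was 0.92 (0.669 to 1.23).

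No single receptor gene passed the test for more peaks than random placement predicts once all genes were taken into account. Each count was compared with the share of the assembled genome that the window covers (exact binomial test, one-sided, with Benjamini-Hochberg adjustment across the 22367 protein-coding genes), and 0 of the 33 receptor genes passed at an adjusted p under 0.05, while 2.09% of all protein-coding genes did. At that share few or no calls would be expected among 33 genes, so 0 does not set the receptor genes apart. Without adjustment 1 of 33 was under 0.05, where the share over all genes was 8.33%. In the other direction 0 receptor genes and 0% of all genes passed, without adjustment 0 of 33 and 3 of all genes were under 0.05, and the lowest unadjusted p among the receptor genes was 0.092. That direction can hardly be tested with windows of this size, because a window of 500 kb is expected to hold 1.3 peaks and an empty one has an unadjusted p of 0.274 (exact binomial test, lower tail). A window of 500 kb needed 7 peaks to pass and the longest, that of Grm7, needed 11, so moderate excesses at single genes could not be detected. The test also treats peaks as independent of each other, and p300 peaks lie in groups, which makes the p-values of crowded windows too small.

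**Figure D1:**
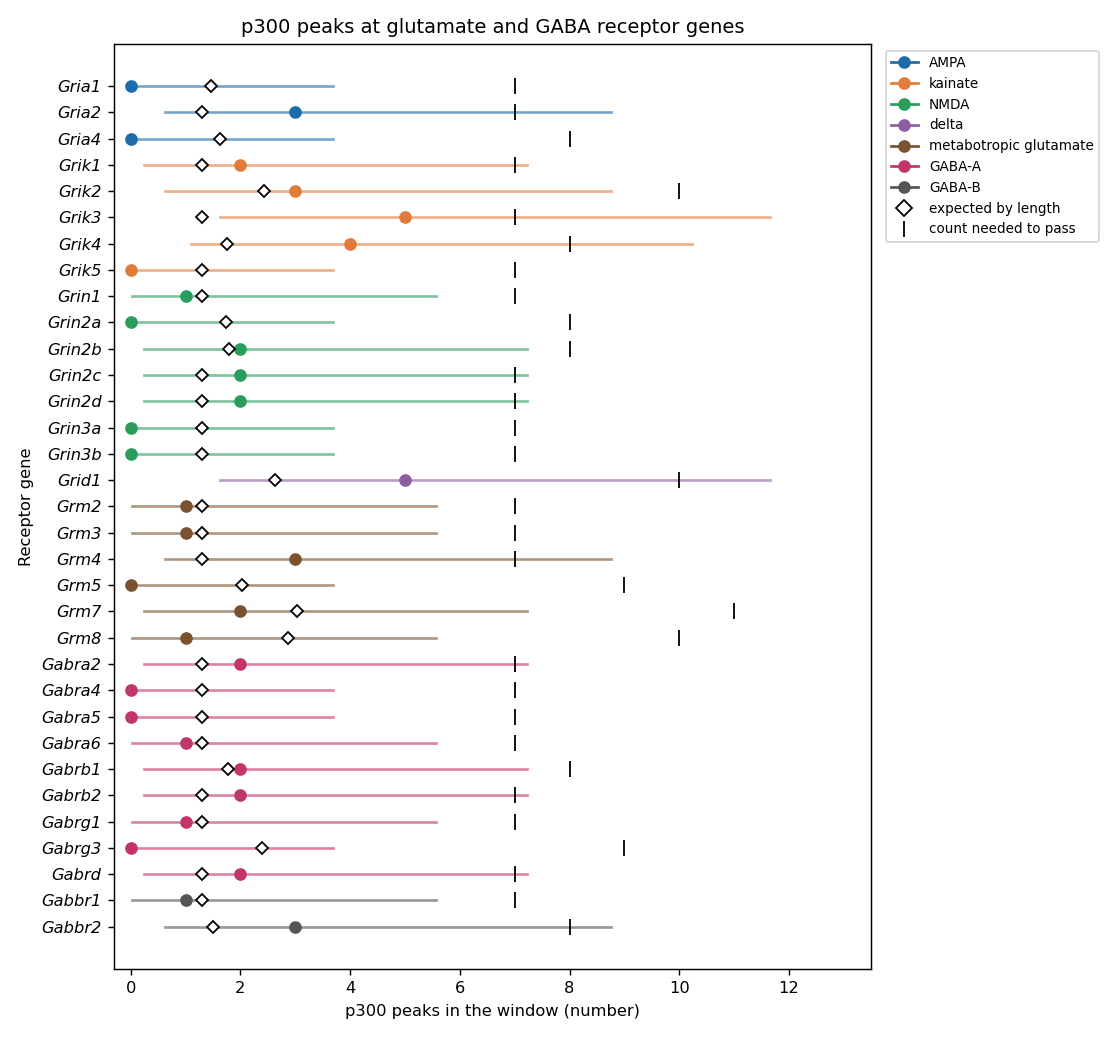
Number of p300 peaks in the window of each receptor gene (filled circles, with exact 95% intervals for counting error as lines), the number expected from the length of the window (open diamonds), and the number that would have passed the exact binomial test after adjustment (vertical bars). No circle reaches its bar, and only the interval of Grik3 lies wholly above the expected number.

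A larger share of the receptor genes than of all protein-coding genes had a peak, while the share with 5 peaks or more was near that of all genes. Of the 33 genes, 23 had at least 1 peak in the window (69.7%, against 48.7% of all protein-coding genes), 10 had none, and none had more than 5. Exactly 5 were held by 2 of them (6.06%), where 5.24% of all protein-coding genes had 5 or more and 3.3% had 6 or more. At that last share few or no such genes would be expected among 33. The median was 1 peak and the mean 1.55, against a median of 0 and a mean of 1.13 over all protein-coding genes. By expectation, 15 of the 33 (45.5%) had more peaks than placement predicts, against 25.7% of all protein-coding genes. Set against genes of like body length, the higher share with a peak was found among the short receptor genes, while the long ones stood near theirs. Of the 12 with a body under 100 kb, 9 had a peak (75%, against 47% of the 19966 protein-coding genes of that length). Among these 12, only Grin2c and Grm4 had a peak for which their own TSS was the nearest coding one, 1 each. The peaks of Gabra6 and Gabrg1 lay inside the receptor genes Gabrb2 and Gabra2 and counted for those too. The matching share over all genes of that length is not given here. Of the 20 with a window of 500 kb, which include these 12, 15 did (75%, against 48% of 21707). Among the 2401 protein-coding genes with a body of 100 kb or more, 63.2% had a peak, the median was 1 and the mean 1.75, and 6.33% had 6 peaks or more. The 21 receptor genes of that length had a median of 2 and a mean of 1.76, and 14 of them had a peak (66.7%). Uniform placement leaves a window of 500 kb empty with a probability of 0.274 (exact binomial test, lower tail). Of the 20 receptor genes with such windows 25% were empty, near that value, beside 52% of all genes with them. In these windows the receptor share with a peak was thus near placement, and the share over all genes was below it. The shares over all protein-coding genes, here and below, include chromosome X, which holds none of the 33 genes. It had 76 peaks where 420 would be expected (fold 0.181, 0.143 to 0.226). The autosomes without a listed gene had folds between 0.87 (chromosome 19) and 1.21 (chromosome 12). How far chromosome X lowers the shares of all genes was not tested. These are descriptions of the lists, and no test was made between them.

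Set beside other protein-coding genes of like span, meaning a window length within 10%, 12 of the 33 receptor genes (36.4%) had more peaks than the mean of those genes, as did 25.9% of all protein-coding genes. Against the median of the like genes, 20 receptor genes (60.6%) were above, beside 48.1% of all. For the genes with windows near 500 kb that mean was 1.1 peaks over 21544 genes, of which 51.6% had none. The 6 receptor genes with bodies of 500 kb and over (Grik2, Grid1, Grm5, Grm7, Grm8 and Gabrg3) had 11 peaks together, where 15.4 would be expected, a fold of 0.715 (0.357 to 1.28). Genes of like span to these 6 had means between 2.22 peaks, beside Grm5, and 4.33, beside Grm7, and only Grid1 was above its mean. The 12 receptor genes with bodies under 100 kb had 14 peaks in their windows (fold 0.901, 0.493 to 1.51) and 0 inside the genes, where 1.28 would be expected.

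**Figure D2:**
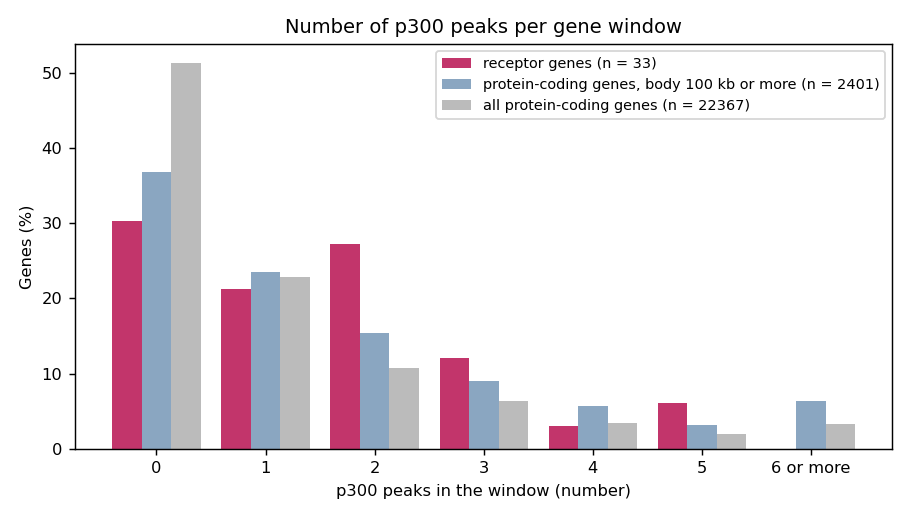
Share of genes (%) by the number of p300 peaks in the window, for the 33 receptor genes, the 2401 protein-coding genes with a body of 100 kb or more and all 22367 protein-coding genes. Windows with 0 peaks make up 30.3% of the receptor genes and 51.3% of all genes. No receptor gene has 6 peaks or more, beside 3.3% of all genes.

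The receptor classes differed in how many peaks they held, but every class had an interval that includes a fold of 1. The kainate receptor genes had the most, with 14 peaks over 5 genes where 8.07 would be expected (fold 1.73, 0.949 to 2.91). The AMPA receptor genes had 3 peaks against 4.4 (fold 0.682, 0.141 to 1.99), the NMDA receptor genes 7 against 10 (0.7, 0.281 to 1.44) and the metabotropic glutamate receptor genes 8 against 11.8 (0.677, 0.292 to 1.33). On the GABA side, the GABA-A receptor genes had 8 distinct peaks against 9.39 (0.852, 0.368 to 1.68) and the GABA-B receptor genes 4 against 2.8 (1.43, 0.39 to 3.66). Glutamate and GABA receptor genes as wholes stood at folds of 1.0 and 0.984. The intervals of the classes overlap each other, and the differences between classes were not tested.

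**Figure D3:**
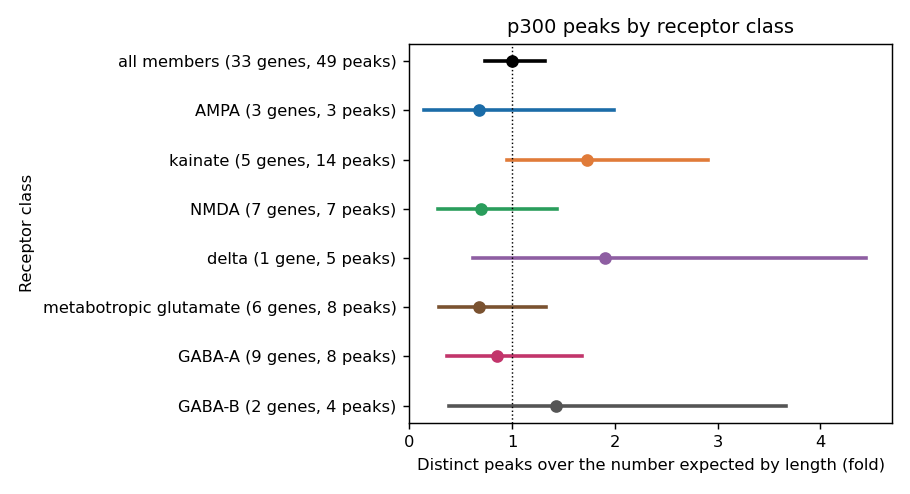
Distinct p300 peaks in the windows of each receptor class divided by the number expected from the covered length (circles, fold), with exact 95% intervals for counting error (lines). The dotted line marks a fold of 1, which every interval crosses, and the kainate class lies farthest above it among the classes with more than 1 gene.

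AMPA receptors carry the fast excitatory current at most synapses, and Gria2 encodes the subunit that limits their permeability to calcium. None of the 3 AMPA receptor genes listed here had a p300 peak within its body, where 2.11 would be expected. Gria1 (chromosome 11, 56824889 to 57143746) and Gria4 (chromosome 9, 4417899 to 4796234) had no peak in their windows either, with 1.47 and 1.63 expected. All 3 peaks of these genes lay upstream of Gria2, at 69.0, 223.0 and 242.6 kb from its TSS. For each of them the TSS of another protein-coding gene was nearer, that of Glrb for the first and of Pdgfc, a growth factor gene, for the others.

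Kainate receptors act both at synapses and as modulators of transmitter release, and Grik4 and Grik5 encode subunits that form channels only together with those of Grik1 to Grik3. Grik3 (ENSMUSG00000001985, plus strand of chromosome 4, 125167944 to 125391417) had the largest fold of the 33 genes, 5 peaks where 1.3 would be expected (fold 3.86, 1.25 to 9.0). It was the 1 gene with an unadjusted p under 0.05 (0.0105), and its adjusted p was 0.209 by the exact binomial test. Of other genes with like windows, 4.9% had 5 peaks or more, and of the 232 genes with a body of like length, 9.05% did. Its peaks lay 207.9, 174.7, 12.5 and 4.8 kb upstream of the TSS and 44.7 kb downstream, in intron 1 of 15. For the farthest of them the TSS of Zc3h12a was nearer, at 155.0 kb. Peak 4505, the one 4.8 kb upstream, covered 1384 bp of intergenic sequence from 125162478 to 125163861 and was 1 of only 2 peaks within 10 kb of a receptor gene's TSS. Its middle 200 bases are shown for that reason, a choice made after the values were seen, on the forward strand of mm9 at chr4:125163070-125163269, and none of the motifs described further on occurs in them, although a TAATTA match lies within the middle 300 bases.

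Grik3, peak 4505: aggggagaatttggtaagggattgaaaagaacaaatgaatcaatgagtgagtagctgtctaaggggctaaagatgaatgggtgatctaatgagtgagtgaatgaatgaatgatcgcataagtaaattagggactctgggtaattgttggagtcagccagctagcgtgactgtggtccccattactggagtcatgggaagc

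Grik4 (ENSMUSG00000032017, minus strand of chromosome 9, 42326218 to 42752576) held 4 peaks, all inside the gene and all more than 300 kb into it. They lay in introns 8, 9 and 13 of 20, at 301.6, 312.8, 317.6 and 371.0 kb from the TSS, and the first 3 of these are close neighbours. The window had 1.75 peaks expected (adjusted p = 0.971, exact binomial test), and the gene body alone 1.1 (unadjusted p = 0.0261, adjusted p = 1, the same exact test on gene bodies). A protein-coding annotation with a clone name, 9530085L02Rik, has its TSS inside this part of the gene, and it was the nearest coding TSS for all 4 peaks. For 5 receptor classes with a peak inside a gene, the sequences here and in the following paragraphs show the middle 200 bases of the peak nearest the TSS within the gene that holds most such peaks. Motif matches are in capitals, and the middle of the Grik4 peak, forward strand of mm9 at chr9:42450921-42451120, has none, since its E-box lies just outside these bases.

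Grik4, peak 6285, intron 8: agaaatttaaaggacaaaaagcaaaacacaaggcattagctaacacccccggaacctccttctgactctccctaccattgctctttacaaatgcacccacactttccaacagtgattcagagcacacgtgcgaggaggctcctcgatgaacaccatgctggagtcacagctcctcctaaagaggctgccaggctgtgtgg

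Grik2 (chromosome 10, 48819266 to 49508572) spans 689.3 kb and had 3 peaks where 2.43 would be expected. Peaks 550 and 551 lay 568.7 and 532.0 kb into the gene, in introns 14 and 12 of 16, and the third lay 196.3 kb upstream. Peak 551 was 3144 bp wide (percentile 99.6 of all peak widths), and its GC content of 28.5% was the lowest of the receptor peaks. Peak 550 overlapped an exon of the annotation used here, the only receptor peak to do so. Grik1 (chromosome 16, 87896441 to 88289947) had 2 peaks against 1.3, both inside the gene, 82.3 kb downstream and 118.1 kb upstream of the TSS used, which belongs to the transcript coding for most sequence and lies within the gene. Grik5 had 0 peaks.

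NMDA receptors need glutamate together with a co-agonist and a depolarised membrane to open. Grin1 encodes the subunit that every NMDA receptor contains, the Grin2 genes encode the subunits that bind glutamate, and Grin2b is the Grin2 gene best known from embryonic forebrain. Only Grin2b (ENSMUSG00000030209, minus strand of chromosome 6, 135679844 to 136123529) had peaks within the gene. They numbered 2, at 7.9 kb from the TSS in intron 3 of 14 and at 240.9 kb in intron 4, against 1.15 expected in the body and 1.8 in the window. Peak 5460, the nearer one, was the other receptor peak within 10 kb of a TSS and was narrow, 583 bp (percentile 1.84). The middle of it, forward strand of mm9 at chr6:136115563-136115762, holds 1 E-box.

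Grin2b, peak 5460, intron 3: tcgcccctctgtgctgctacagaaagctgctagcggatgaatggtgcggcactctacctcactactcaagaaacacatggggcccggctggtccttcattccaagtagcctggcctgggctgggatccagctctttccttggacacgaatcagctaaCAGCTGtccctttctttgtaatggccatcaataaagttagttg

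The remaining NMDA receptor genes had 0 to 2 peaks, none of them within the gene. Grin2c had 2 peaks 33.3 and 49.2 kb downstream of its TSS, both inside Tmem104, and Grin2d had 2 peaks 229.1 and 236.3 kb upstream, which lie 4.0 and 3.2 kb from the TSS of Kcnj11, a potassium channel gene. The single peak of Grin1 lay 192.8 kb downstream, nearest to Noxa1. Grin2a, a 417.2 kb gene on chromosome 16 whose subunit replaces much of that of Grin2b as the cortex matures, had 0 peaks where 1.73 would be expected. Grin3a and Grin3b, whose subunits bind glycine, had 0 peaks against 1.3 each.

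Grid1 (ENSMUSG00000041078, plus strand of chromosome 14, 35633011 to 36396565) encodes a delta receptor, a member of the ionotropic glutamate receptor family that acts in synapse formation. It had 5 peaks, as many as Grik3, but in a window longer than 1 Mb, so that 2.63 would be expected (fold 1.9, 0.618 to 4.44, adjusted p = 0.971, exact binomial test). All 5 lay in the gene, 189.1, 208.1, 275.9, 293.6 and 425.2 kb from the TSS, and its own TSS was the nearest coding one for each. The peak at 189.1 kb was in intron 3 of 15 and the others were all in intron 4. In the body alone 1.98 would be expected (unadjusted p = 0.0507, exact binomial test). Of the 44 genes of like window length, 25% had 5 peaks or more.

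The metabotropic glutamate receptor genes listed here fall into Grm5, which acts through phospholipase C and calcium, and Grm2, Grm3, Grm4, Grm7 and Grm8, which lower cyclic AMP. The longest had few peaks. Grm7 (chromosome 6, 110595575 to 111517224), the longest gene of the list at 921.6 kb, had 2 peaks where 3.04 would be expected, at 648.2 and 727.5 kb from its TSS in introns 7 and 8 of 10. Grm8, with 860.1 kb on the same chromosome, had 1 peak against 2.87, located 235.8 kb upstream in Zfp800 and none inside the gene, where 2.23 would be expected. Grm5 (532.5 kb, chromosome 7) had 0 peaks against 2.03. The peak of Grm7 nearer to the TSS has 1 Lhx/Lmx match in its middle, forward strand of mm9 at chr6:111243725-111243924.

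Grm7, peak 5421, intron 7: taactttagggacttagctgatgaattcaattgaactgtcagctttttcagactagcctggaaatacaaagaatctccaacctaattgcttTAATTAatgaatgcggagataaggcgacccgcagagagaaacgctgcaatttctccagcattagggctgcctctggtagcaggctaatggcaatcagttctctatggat

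Of the shorter metabotropic genes, Grm4 had 3 peaks where 1.3 would be expected (adjusted p = 0.971, exact binomial test). None was within the gene, and they lay 21.7 and 166.0 kb upstream and 123.7 kb downstream. The peak at 21.7 kb was marginally nearer to the TSS of Hmga1, a chromatin protein gene, at 21.6 kb. Grm3 had 1 peak, 22.1 kb into the gene in intron 1 of 5, and Grm2 had 1, 74.5 kb upstream within Rad54l2.

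GABA-A receptors are chloride channels assembled mostly from alpha, beta and gamma or delta subunits, and their genes stand in clusters, so windows overlap and a peak can count for more than 1 gene. Gabrg1, Gabra2, Gabra4 and Gabrb1 lie in that order on chromosome 5 between 71142286 and 72529628. Their windows held 4 distinct peaks. Peak 4765, in intron 8 of 9 of Gabra2 and 100.1 kb from its TSS, also counted for Gabrg1, and peak 4766 lay 153.1 kb upstream of Gabra2. The other peaks were close neighbours in intron 4 of 8 of Gabrb1, 276.9 and 287.3 kb from its TSS and nearer to that of Commd8, and Gabra4 had none within 250 kb. The middle of the nearer of these, forward strand of mm9 at chr5:72367963-72368162, has no motif match, its E-box again lying outside the stretch.

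Gabrb1, peak 4767, intron 4: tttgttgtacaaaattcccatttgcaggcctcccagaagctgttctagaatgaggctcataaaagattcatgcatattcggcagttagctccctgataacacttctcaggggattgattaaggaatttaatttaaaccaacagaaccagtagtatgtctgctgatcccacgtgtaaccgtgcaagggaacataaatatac

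The other listed GABA-A genes had from 0 to 2 peaks each. Gabra6, a gene of cerebellar granule cells, and Gabrb2 share peak 799 on chromosome 11, which lies in intron 5 of 10 of Gabrb2, 81.6 kb from the TSS of Gabrb2 and 180.3 kb from that of Gabra6. Gabrb2 had a further peak 230.6 kb downstream. Gabra5 and Gabrg3, neighbours on chromosome 7, had 0 peaks, although Gabrg3 is 670.7 kb long and 2.39 peaks would be expected in its window. An empty window there has an unadjusted p of 0.092 (exact binomial test, lower tail), and the peak-free stretch around both genes is described further on. Gabrd, whose subunit serves receptors outside synapses, had 2 peaks, 151.5 and 184.6 kb downstream, and the second lay inside Ski.

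The GABA-B receptor joins the product of Gabbr1, which binds GABA, to that of Gabbr2, which couples to G proteins. Gabbr2 (ENSMUSG00000039809, minus strand of chromosome 4, 46675190 to 47004745) had 3 peaks where 1.5 would be expected (fold 2.0, 0.412 to 5.84, adjusted p = 1, exact binomial test). They lay 102.5 kb into the gene in intron 1 of 18, 164.3 kb in intron 3, and 45.7 kb upstream within Anks6. Gabbr1 had 1 peak, 17.0 kb upstream and 5.5 kb from the TSS of Mog, a myelin gene. The middle of the intron 1 peak of Gabbr2, forward strand of mm9 at chr4:46902139-46902338, was the richest in motif matches of the sequences shown, with 3 E-boxes and 2 Rfx matches.

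Gabbr2, peak 4240, intron 1: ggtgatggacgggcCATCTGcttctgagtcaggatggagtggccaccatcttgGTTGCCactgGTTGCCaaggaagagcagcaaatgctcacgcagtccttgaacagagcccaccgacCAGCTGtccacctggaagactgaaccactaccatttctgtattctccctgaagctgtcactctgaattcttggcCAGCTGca

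**Figure D4:**
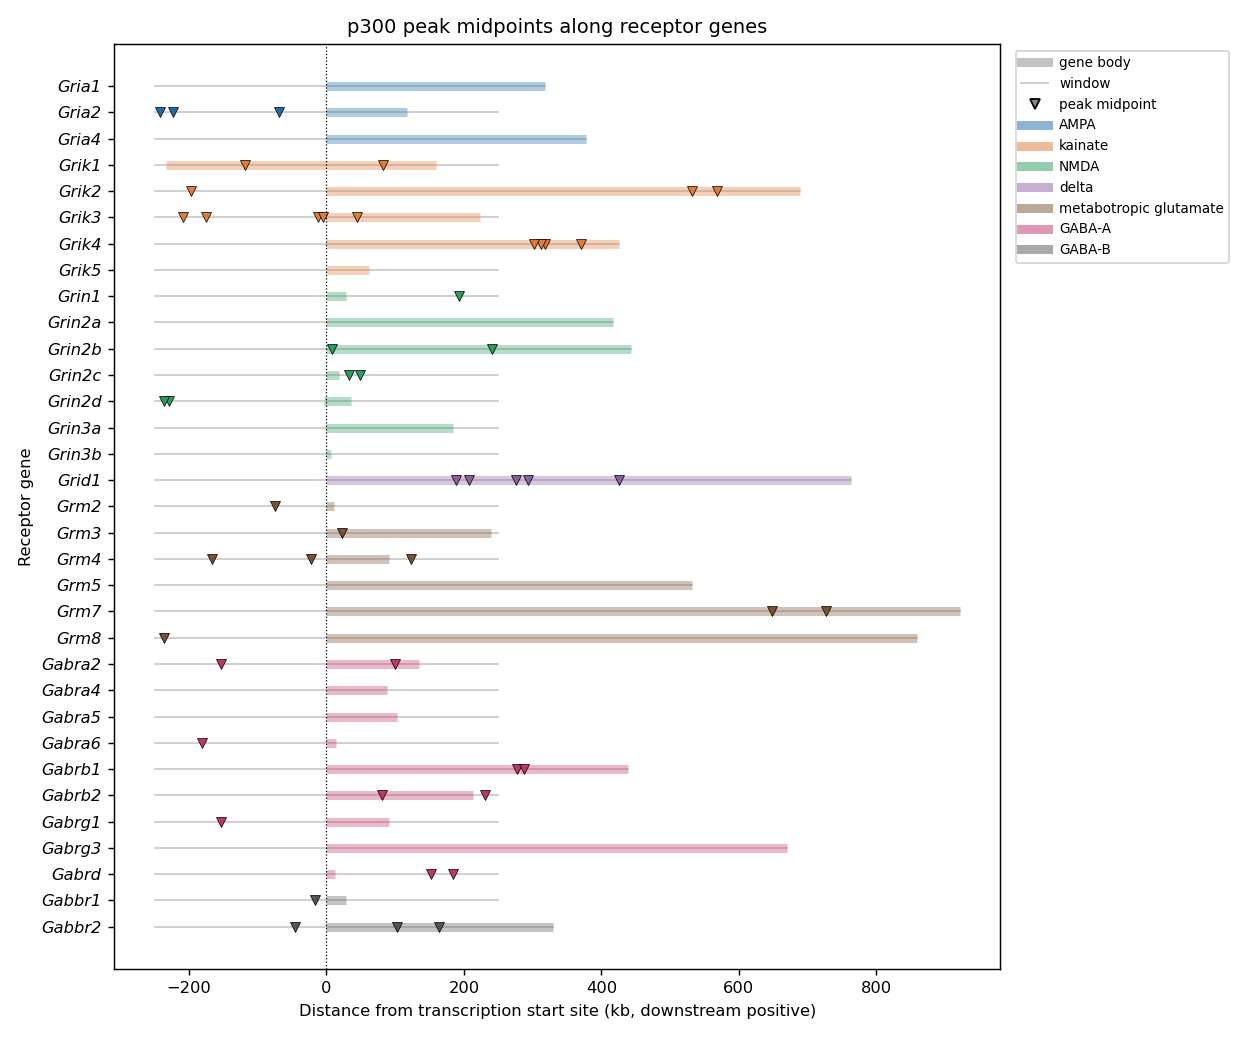
Midpoints of p300 peaks (triangles) along each receptor gene, as distance from its TSS in kb with downstream positive; thick bars are gene bodies and thin lines the windows. Peaks within 50 kb of a TSS number 10 of 51 gene and peak pairs, and in Grik2, Grik4, Gabrb1 and Grm7 the peaks within the gene lie at least 276.9 kb from the TSS.

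Taking the 49 peaks as a set, 25 lay within a receptor gene, 9 in another protein-coding gene and 15 between protein-coding genes. A peak in the body was present in 12 of the 33 genes (36.4%), beside 6.57% of all protein-coding genes, and in 57.1% of the 21 genes with bodies of 100 kb or more, beside 39.9% of all genes that long. Of these 25 peaks, 24 were in an intron of the transcript used for that gene, and 3 were in intron 1 (12.5%, exact 95% interval 2.66 to 32.4%), which makes up 12.6% of the intron length of the 33 genes. For 27 peaks the nearest coding TSS was that of a receptor gene and for 22 it was that of another gene, and 11 of the 23 genes with peaks had none for which their own TSS was the nearest. Which gene a peak acts on was not measured. Counted from the TSS, 2 of the 51 gene and peak pairs lay within 10 kb and 10 within 50 kb.

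Width and the nearness of other peaks were similar in value between the receptor peaks and the rest, while GC content was slightly higher and the nearest TSS closer at the receptor peaks. Their median width was 1013 bp (quartiles 787 and 1188) beside 1017 bp (860 and 1260) for the other 6580 peaks. Their mean GC content was 46.7% ± 7.67 (SD, n = 49 peaks) beside 45.3% ± 6.51, and the medians were 48.4% and 45.2%. The median distance to the nearest coding TSS was 44.7 kb for the receptor peaks and 82.9 kb for the others, and 49% against 63.8% lay over 50 kb from one, a comparison affected by the windows, which are drawn around a TSS. Another peak lay within 50 kb for 24 of the 49 (49.0%, exact 95% interval 34.4 to 63.7%) and for 50.1% of the others. These peaks share 1 library and many share a locus, so they are not replicates, and no test was made.

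Short motifs of factor families known in the developing cortex were searched on both strands in the middle 300 bases of every peak. The E-box of Neurod and Neurog factors (CATCTG or CAGCTG) occurred in 29 of the 49 receptor peaks (59.2%, exact 95% interval 44.2 to 73.0%) and in 62.2% of all 6629 peaks. The Lhx/Lmx motif TAATTA was found in 30.6% (18.3 to 45.4%) and 23.5%, the Sox motif CATTGT in 22.4% (11.8 to 36.6%) and 18.1%, and the Rfx motif GTTGCC in 14.3% (5.94 to 27.2%) and 13.4%. The full Nfi dimer, TTGGC followed by GCCAA after 5 bases, was found in 0 of 49 (up to 7.25%) and in 0.196% of all peaks. Each interval includes the share of all peaks. Matches of different motifs may overlap in part, and each motif was counted on its own. The authors scored motif matrices, which allow inexact matches. They reported the Nfi dimer in a larger share of these peaks, and the Neurod/Neurog motif in a smaller one. The shares here count exact letters only and cannot be set beside theirs.

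Distances from the TSS to the nearest p300 peak ranged from 4.8 to 4787.2 kb. The median distance from a receptor TSS to the nearest peak was 192.8 kb, beside 262.2 kb for 22350 protein-coding genes on chromosomes with peaks, and 7 of 33 (21.2%) were under 50 kb from one, beside 12.8%. At the other end 6 of 33 (18.2%) were over 1 Mb from a peak, near the 15.1% of all genes. The 6 were Gria4 (4787.2 kb), Grik5 (3847.6 kb), Gabra5 (2108.6 kb), Gabrg3 (1985.8 kb), Grin2a (1399.3 kb) and Grin3b (1315.0 kb), which were named after their values were seen. Gabra5 and Gabrg3 share a peak-free stretch of 7.65 Mb on chromosome 7 from 62656800 to 70309719, and only 9 of the 6609 distances between neighbouring peaks in the genome were longer. Grik5 lies in another stretch of chromosome 7, 9.8 Mb long, and 5 were longer. The 5 receptor genes on chromosome 7 (Grik5, Grin2d, Grm5, Gabra5 and Gabrg3) had 2 distinct peaks in windows where 7.32 would be expected, a grouping made after the values were seen. That chromosome as a whole had 300 peaks against 368 (fold 0.816, 0.728 to 0.911). How much of these stretches can be mapped uniquely was not measured, and its part in the empty windows was not tested. Because only called peaks are listed, p300 binding below the calling threshold was not detectable.

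Other genes of the same signalling systems, which make, move, anchor or modify the transmitters and receptors, were counted in the same way. Of 49 further genes of glutamate and GABA signalling, comprising 12 accessory subunit, 20 scaffold, 12 transporter and 5 enzyme genes, 0 passed the exact binomial test in either direction, beside the 2.09% of all genes that passed as higher. Their windows held 1.29 peaks on average, with a median of 1, and 30 of the 49 had at least 1 (61.2%). More peaks than expected were found at 26.5% of them, and 26.5% had a peak in the body. The difference from the receptor genes was not tested. The largest counts were 5 peaks each, where 1.3 would be expected, at Cacng5, an accessory subunit gene of AMPA receptors, Grip2, a scaffold gene, and Slc17a6, which encodes a vesicular glutamate transporter (adjusted p = 0.209 for each, exact binomial test). Without adjustment 5 of the 49 were under 0.05 (10.2%), where the share over all genes was 8.33%.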

How the data were processed

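The deposited file used here lists p300 peaks on mm9 by chromosome, start, end and name. The authors aligned reads with ELAND, kept unique alignments, and called peaks with MACS (1.4 in the submitters' processing notes) on the p300 library against its input, then took out peaks at exons, near a TSS or in doubtful mapping. No data of the input were used here. Peaks were placed on NCBIM37 (the same assembly as mm9) with GENCODE vM1, and each gene was represented by the transcript whose coding sequence is longest. Expected counts are the share of the 2.56 Gb of assembled bases on the chromosomes that a window covers, times 6629. Counts were tested with a one-sided exact binomial test and Benjamini-Hochberg adjustment over 22367 protein-coding genes. Intervals are exact Clopper-Pearson intervals at 95% and cover counting error only. Sequences were read from the same assembly. Python 3.11.15, numpy 2.4.6, scipy 1.17.1 and matplotlib 3.10.9 were used, and the counting and the test were checked on simulated peak sets. The genes named are the 33 receptor genes, in full where a gene passed the test or had at least 5 peaks, genes with a nearer TSS, and signalling genes that passed. The genes and lists were chosen with earlier results of these data known. Genes with fewer peaks are described more fully than that rule asks, of the sequences it selects 5 are shown, each from another class, 1 is not reported here, and 1 for Grik3 was added after its values were seen, and the 3 signalling genes with the largest counts were named after their values were seen. The alternatives changed the window, the peaks counted, the space of placement, the TSS and the assignment of peaks.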

Additional observations from a re-analysis of the deposited data

How the results depend on the processing

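In 11 other settings, 0 of the 33 receptor genes passed the exact binomial test in each, and from 1 to 3 were under 0.05 without adjustment. The share of all protein-coding genes that passed ran from 0.219% with gene bodies alone to 4.09% with 500 kb. At such shares few or no calls would be expected among 33 genes. These settings used 100 or 500 kb in place of 250 kb, gene bodies alone or no gene body beyond 250 kb, any overlap in place of the midpoint, joined or wide peaks, placement outside exons and TSS or within a chromosome, the most upstream TSS, and the nearest TSS only. The fold over all receptor windows ran from 0.789 with the nearest TSS only to 1.06 after peaks under 5 kb apart were joined, in 12 settings that include leaving out Grik3. The number of genes called over the whole annotation moved more, from 468 to 914 with 500 kb and 673 with placement outside exons and TSS. It was 339 with wide peaks, 256 with joined peaks, 198 with 100 kb, 101 with the nearest TSS only and 49 with gene bodies alone. For the AMPA receptor genes the fold moved from 0.682 to 0 in gene bodies alone, where 2.11 peaks would be expected. The signalling genes and the lower tail gave 0 calls with 100 kb, 500 kb and gene bodies. With like span taken as gene body length, 11 receptor genes exceeded the mean of like genes, and with windows within 25%, 13 did. Leaving out clone and model names, chosen after seeing the data, kept the number of peaks nearest to a receptor TSS at 27. In whole peaks the Sox motif's ratio to all peaks was 0.718, where it was 1.24 in the middle 300 bases. No paired analysis was possible because there is 1 library of each kind. The peak list alone sets the precision, with 1.3 peaks expected in a window of 500 kb.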
